A study of Mus musculus with 2 samples.

Results

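Fibroblast subcluster 4 is a small group of cells from the infarcted mouse ventricle that the study labelled "Myofibroblast, Matrifibrocyte". It was described over all 15059 genes of its table, of 15181 distinct genes in all tables of the series. Its members were the 50 cells behind that table, 40 from the PostnMCM control library and 10 from the library labelled Yap/Wwtr1-depleted, of 324 cells in the 4 fibroblast subclusters with a table. For each gene the table gives the share of cells with a corrected count above 0, and a transcript is called detected in those cells. Corrected counts are those left by the authors' normalization. By this measure 9130 genes reached 25% of cells in either library.

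Cardiac fibroblasts respond to infarction by becoming myofibroblasts, which contract and lay down collagen in the scar. Matrifibrocytes are a later state of these cells in the mature scar, with cartilage and tendon genes and little contractile gene expression. Yap (gene Yap1) and TAZ (gene Wwtr1) are co-activators that enter the nucleus when the Hippo kinases are inactive and act there with TEAD factors on genes of growth, matrix and contraction, among them members of the CCN family of matricellular proteins.

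Interstitial cells were dissociated from ventricles after ligation of the left anterior descending coronary artery and sorted for viability before droplet capture with 3′ chemistry. The control library came from PostnMCM mice and the other from Yapfl/fl;Wwtr1fl/+;PostnMCM mice, in which Cre can excise Yap1 on both alleles and Wwtr1 on 1. PostnMCM is an inducible Cre recombinase at the periostin (Postn) locus, so excision is limited to cells that have used that locus, and both strains also carried R26-eGFP. The mice were 8 to 10 weeks old per the study's methods, all received chow with 0.4 g/kg tamoxifen from surgery on, and per the labels hearts were taken 6 days after myocardial infarction (MI), while the methods place collection a day later. There was 1 library per group, so every difference below is between 2 libraries, has no replicate check and carries no p-value. How many animals entered each library is not given in the sources used here.

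The cell numbers were read from the step between shares. All shares of the control library were multiples of 1 cell in 40 and those of the library labelled depleted multiples of 1 cell in 10, with all 41 and 11 possible values present, so 1 cell was worth 2.5 and 10 percentage points. A gene detected in 0 of 40 control cells could still be detected in up to 7.5% of such cells, and 0 of 10 cells allows up to 30%. These limits are on cells in which the transcript is detected and not on cells that express the gene. Detection also depends on the correction of counts, which the authors ran again on the fibroblasts alone. With the earlier correction over all cells, S100a8 was in 32.6% of all control fibroblasts, which include cells of further subclusters. Here it was in 91.0%, 83.3%, 82.5% and 78.3% of control cells of subclusters 0, 3, 4 and 5. The mean number of genes detected per cell was 5387 in the control library and 5495 in the library labelled depleted, and in subclusters 0, 3 and 5 it was between 4957 and 5605. Intervals below are exact (Clopper-Pearson) 95% binomial intervals of a share and, like these limits, cover counting error only. They take the corrected counts as given. Counts per cell are not in the tables, and the numbers of detected genes rest on corrected counts, so depth per cell is not known. No file analysed here holds cell barcodes with which doublets or shared barcodes could be counted.

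The label was first compared with marker genes. Of the 4 genes by which the study described these cells, Thbs1 (thrombospondin 1, a matricellular protein) was detected in 87.5% of control cells and 90% of cells labelled depleted, and Sfrp2 (a secreted Wnt modulator) in 82.5% and 90%. Angptl7, an angiopoietin-like secreted protein, was found in 45% and 50%, and Vegfc, a lymphatic growth factor, in 87.5% and 60%. All 4 control shares exceeded those in subclusters 0, 3 and 5, where Angptl7 lay between 8.70% and 26.7% and Vegfc between 23.3% and 43.5%. The study chose these genes on the same cells, so their higher shares here are a description of that choice. The other genes of the same list ranged widely. Clu and Sparc were in every cell, Comp, Cilp and Meox1 were in 0 cells of both libraries, Cilp2 was in 5% and 20%, Itgbl1 in 20% and 40%, Fmod (fibromodulin) and Prg4 (lubricin) each in 32.5% and 30%, Ecrg4 in 20% of both and Dpt in 10% of both, and Chad was not among the 15059 genes.

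The myofibroblast markers ranged from absent to present in every cell. Postn itself was detected in 10% of control cells and 20% of cells labelled depleted, against 87.0% and 100% in subcluster 5. Ddah1 was in 0 cells of both libraries, Fap in 5% and 0%, Tnc in 27.5% and 10%, and Acta2, which encodes the smooth muscle actin of myofibroblasts, in 32.5% and 40%. Other members of the list were common in control cells, with Mylk in 77.5%, Cthrc1 in 70%, Des in 67.5%, Ltbp2 in 65% and Tagln in 60%, and in 70%, 10%, 40%, 50% and 40% of cells labelled depleted. Lox, the collagen crosslinking enzyme, and Fn1 (fibronectin) were in every cell, as were the general fibroblast genes Col1a1, Col1a2, Col3a1 and Dcn. Genes of the epicardium and mesothelium were widespread at the same time. The transcription factor Wt1 was detected in 92.5% and 100% of cells, Lrrn4 in 100% and 90%, Upk3b in 95% and 70%, Bnc1 in 80% and 90% and Krt8 in 87.5% and 70%. They were common in subclusters 0 and 3 too. Upk3b was in 93.8% and 93.3% of control cells of subclusters 0 and 3, Lrrn4 in 90.3% and 86.7% and Wt1 in 97.2% and 93.3%, while Bnc1 was in 58.6% and 63.3% and Krt8 in 44.1% and 60%. In subcluster 5 the control shares of Wt1, Upk3b, Lrrn4, Bnc1 and Krt8 were 73.9%, 21.7%, 13%, 0% and 4.35%. Both lists behind the name thus held common and absent members, Postn was uncommon, and the cells are called fibroblast subcluster 4 here.

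**Figure D1:**
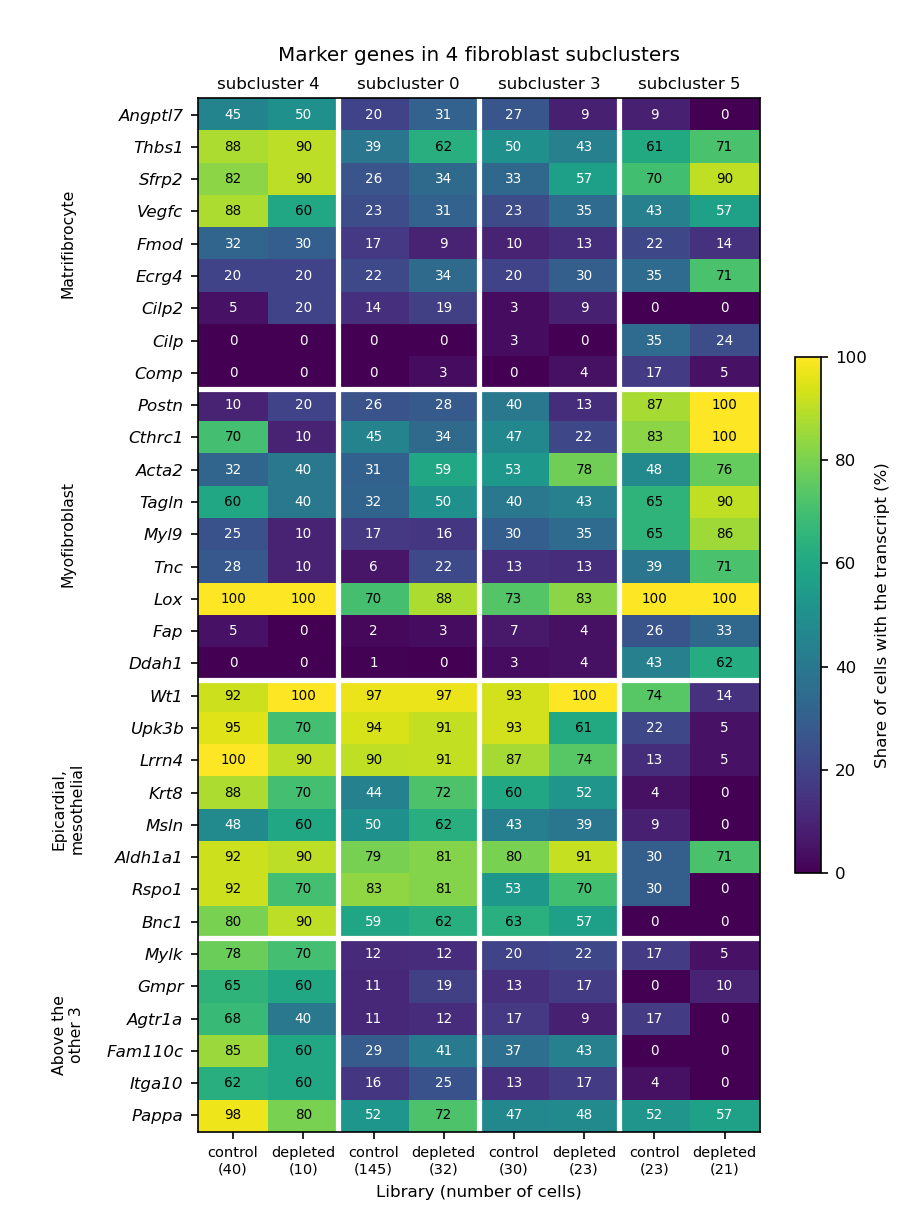
Share of cells with each transcript (%, colour and number, rounded) for marker genes in rows, in both libraries of fibroblast subclusters 4, 0, 3 and 5, with the number of cells under each column. Subcluster 4 has high shares of Thbs1, Sfrp2, Vegfc and of epicardial genes, and Postn in 10% and 20% of cells against 87.0% and 100% in subcluster 5.

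Genes that set subcluster 4 apart in the control library were taken by size after the values were seen, and since the cells were clustered on such genes they are a description of the subcluster only. Mylk, the myosin light chain kinase of smooth muscle, was detected in 77.5% of control cells, against 12.4%, 20% and 17.4% in subclusters 0, 3 and 5. Agtr1a, a receptor for angiotensin II, was in 67.5%, Gmpr in 65%, Fam110c in 85%, the integrin subunit Itga10 in 62.5% and the IGF-binding protein protease Pappa in 97.5%. In the library labelled depleted the same genes were in 70% (Mylk), 40% (Agtr1a), 60% (Gmpr, Fam110c, Itga10) and 80% (Pappa) of cells. Of the 15 genes with the largest margin in control cells, 14 were also above the other 3 subclusters in the cells labelled depleted. The exception was Hspb7, with 72.5% of control cells and 30% of cells labelled depleted. Genes lower than in the other 3 included Mfap5, a microfibril protein, in 32.5% and 40% of cells, and Emp1 in 35% and 40%, against control shares of at least 73.3% and 75.2% elsewhere.

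The targeted genes were examined next. Yap1 (chromosome 9, 7932000 to 8004661, GRCm39) was detected in 23 of 40 control cells (57.5%, interval 40.9% to 73.0%) and 4 of 10 cells labelled depleted (40%, 12.2% to 73.8%). Wwtr1 (chromosome 3, 57363067 to 57483331) was in 80% (64.4% to 90.9%) and 60% (26.2% to 87.8%). Both shares were lower in the library labelled depleted, by 17.5 and 20 points, and their intervals overlapped. In subclusters 0, 3 and 5, Yap1 went from 46.2% to 56.2%, from 23.3% to 43.5% and from 30.4% to 47.6%, and Wwtr1 from 81.4% to 90.6%, from 93.3% to 91.3% and from 100% to 85.7%. The excised exons are not given in the sources used here, and 3′ reads outside the excised part would not show an excision, so these shares do not settle whether the label holds in these 10 cells. With Postn in 1 to 2 of every 10 cells, it is also not known how many of them had used the Cre.

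Across the 9130 genes most differences were small. The median difference, share labelled depleted minus control share, was 2.5 points and the mean 1.85, with 4596 genes higher (50.3%), 3573 lower (39.1%) and 961 equal, and 73.4% of genes differed by less than 20 points. With 10 cells on 1 side, a difference of 20 points is 2 cells, and such differences were common: 1420 genes were higher (15.6%) and 1008 lower (11%) by at least that much. A difference of at least 50 points was taken as large. By that size 23 genes were higher (0.252% of those described) and 16 were lower (0.175%). These are counts by size and not of changed genes.

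**Figure D2:**
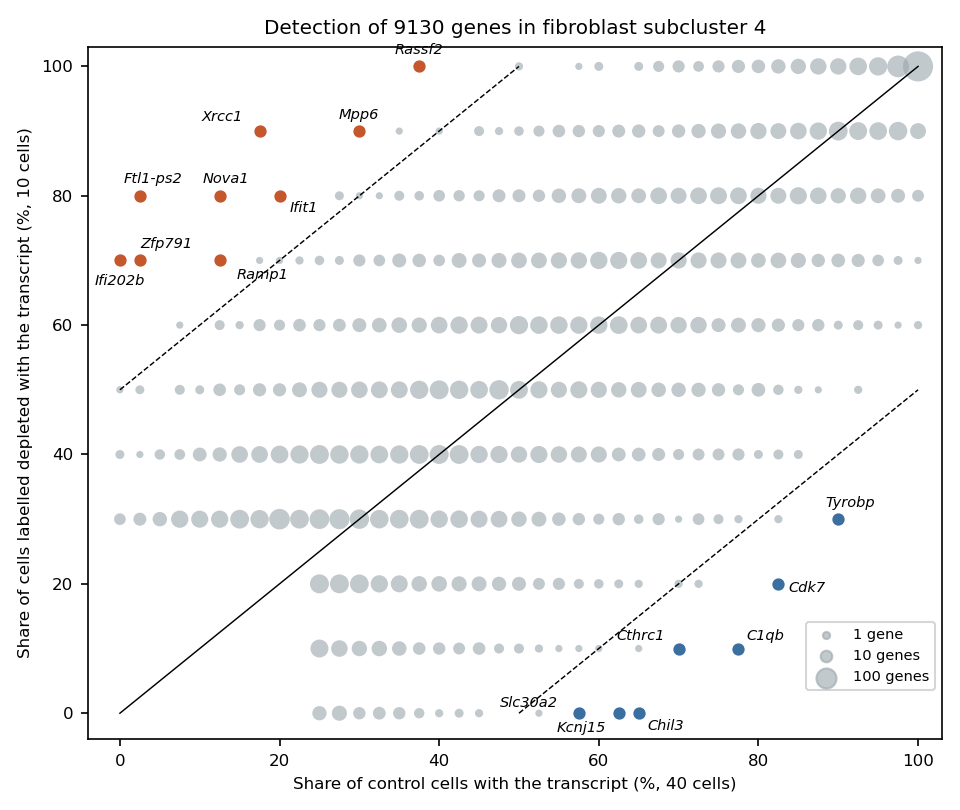
Share of the 40 control cells (horizontal axis, %) against share of the 10 cells labelled depleted (vertical axis, %) for 9130 genes of fibroblast subcluster 4. Grey dots grow with the number of genes at the same pair of shares, the solid line marks equal shares, the dashed lines mark differences of 50 percentage points, and coloured dots are named genes, with Ftl1-ps2 at 2.5% and 80% and Chil3 at 65% and 0%.

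The largest difference belonged to Ftl1-ps2, a processed pseudogene of the ferritin light chain gene Ftl1 (single exon, chromosome 10, 130428026 to 130428574, minus strand, GRCm39). It was detected in 1 of 40 control cells (2.5%, interval 0.0633% to 13.2%) and 8 of 10 cells labelled depleted (80%, 44.4% to 97.5%). Its parent Ftl1, which encodes an iron storage subunit, was in every cell of both libraries. The pseudogene's exon of 549 bases aligned to the coding part of Ftl1 with 537 identical bases (97.8%) and 12 differing ones, and the longest identical run was 93 bases, so that reads of the gene and its copy can be hard to tell apart. The end of the aligned stretch, bases 400 to 549 counted from the start codon and the part nearest to the 3′ end that this chemistry reads, is shown for both because it holds 5 of the 12 differences, in capitals. The Ftl1 stretch lies at chr7:45107534-45107683 (minus strand, coding) and the Ftl1-ps2 stretch at chr10:130428026-130428175 (minus strand), both from GRCm39.
Ftl1: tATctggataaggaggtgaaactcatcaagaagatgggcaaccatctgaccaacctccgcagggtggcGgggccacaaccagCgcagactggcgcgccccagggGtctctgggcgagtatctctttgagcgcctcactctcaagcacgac
Ftl1-ps2: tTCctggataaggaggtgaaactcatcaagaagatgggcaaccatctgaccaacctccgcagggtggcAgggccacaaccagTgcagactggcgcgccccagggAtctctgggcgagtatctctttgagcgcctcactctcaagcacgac

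The same pseudogene was high in the other subclusters of the library labelled depleted, with 1.38% and 93.8% in subcluster 0, 0% and 95.7% in subcluster 3, and 0% and 100% in subcluster 5. Outside the fibroblasts it was listed in all 17 cluster tables, with control shares between 0% and 5.2% and shares labelled depleted between 28.3% and 100%. Those cluster tables list only genes past the authors' limits on size and on 25% of cells. A second pseudogene, Rpl17-ps10 (chromosome 7), went from 7.5% to 60%, and the predicted gene Gm51963 from 0% to 50%. Outside the fibroblasts Gm51963 was listed for 7 of the 17 clusters and was higher in all 7. Its control shares there lay between 0% and 3.7% and its shares labelled depleted between 28.7% and 39.6%.

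Ifi202b (chromosome 1, 173790134 to 173810414), of the interferon-inducible IFI200 family of DNA-binding proteins, was in 0 of 40 control cells, which allows up to 7.5%, and in 7 of 10 cells labelled depleted (70%, interval 34.8% to 93.3%). It was in 0% of control cells of subclusters 0, 3 and 5 too, and in 75%, 82.6% and 57.1% of their cells labelled depleted. Outside the fibroblasts it was listed for 5 of the 17 clusters and was higher in all 5. Its control shares there were 0% and its shares labelled depleted between 27.1% and 80.3%. Mpp6, a membrane scaffold protein, went from 30% to 90% here, and from 28.3% to 96.9%, 23.3% to 100% and 47.8% to 95.2% in subclusters 0, 3 and 5. IFI200 genes are closely related paralogs, and how reads shared among them were counted is uncertain.

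Xrcc1, a scaffold of DNA single-strand break repair, was detected in 17.5% of control cells (interval 7.34% to 32.8%) and 90% of cells labelled depleted (55.5% to 99.7%). In subclusters 0, 3 and 5 it went from 30.3% to 25%, from 53.3% to 65.2% and from 26.1% to 23.8%. Nova1, a splicing regulator best known from neurons, went from 12.5% to 80% in subcluster 4 and from 40.7% to 56.2%, 36.7% to 30.4% and 21.7% to 19.0% in the others. Rassf2, which binds the Hippo kinases Stk3 and Stk4, went from 37.5% to 100%. Its shares elsewhere were 44.8% and 68.8%, 36.7% and 47.8%, and 21.7% and 28.6%. The zinc finger gene Zfp791 went from 2.5% to 70%, and Ramp1, which pairs with a class B receptor to bind CGRP, from 12.5% to 70%.

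The linker histones H1f2 and H1f5 each went from 12.5% to 70%, against 36.7% to 43.5% and 46.7% to 56.5% in subcluster 3. Both belong to a family of related genes, and whether any reads were shared among its members was not examined. Of 16 cell cycle genes at the limit 7 were higher and 8 lower, 2 each way by at least 20 points against 15.6% and 11% of all genes described, with a median of -2.5 points. Hmgb2 went from 70% to 100% and Pttg1 from 10% to 40%, while Bub3 went from 77.5% to 40% and Tyms from 75% to 50%. Tent5a, a poly(A) polymerase, went from 35% to 90%, Ago2, the slicing Argonaute, from 27.5% to 80%, and Calhm2, a channel subunit, from 17.5% to 70%. The other genes higher by at least 50 points were Strn4 and Tmem43 (both 27.5% to 80%), Gsk3a (40% to 90%), Coq3 (20% to 70%), Snhg9 (30% to 80%), and Jup and Zbtb4 (both 50% to 100%). Tmem43, a nuclear envelope protein, had a low control share here compared with 71.0%, 63.3% and 73.9% in subclusters 0, 3 and 5.

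Interferon-stimulated genes, which cells switch on to resist viruses, had higher shares in the library labelled depleted. Of 36 genes on the list, 35 reached 25% of cells in either library, of which 25 were higher, 2 lower and 8 equal, with a median difference of 15 points against 2.5 over all genes described. By at least 20 points 13 of the 35 were higher and 0 lower, against 15.6% and 11% of all genes described. A control cell had on average 17 of the 36 transcripts and a cell labelled depleted 22.3. Ifit1, which binds foreign RNA caps, went from 20% of control cells (interval 9.05% to 35.6%) to 80% (44.4% to 97.5%), and these intervals did not overlap.

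Further members followed at smaller size. Usp18, which removes the ubiquitin-like Isg15 from proteins, went from 12.5% to 60%, and Isg15 itself from 57.5% to 80%. Ifi44 went from 22.5% to 60%, the transcription factor Irf1 from 35% to 70%, Oasl2 from 62.5% to 90%, Rtp4 from 42.5% to 70%, and Stat2, a subunit of the interferon-activated transcription factor, from 32.5% to 60%. The intervals of these genes overlapped between libraries. Oas1a (30% to 20%) and Igtp (50% to 40%) were lower by 1 cell of 10. Bst2, Ifitm2, Ifitm3 and Ifi27 were in every cell of both libraries, where a share cannot show a difference in level.

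In subclusters 0, 3 and 5 the mean number of list genes per cell was 21.1, 19.4 and 12.7 in control and 24.6, 22 and 19.4 in the library labelled depleted. The median differences of the 35 genes were 9.68, 6.23 and 20.3 points there. T and NK cell markers went both ways. Of the 3 at the limit Cd3g (7.5% to 30%) and Cd8a (2.5% to 30%) were higher and Ccl5 (27.5% to 10%) was lower, and below the limit Cd3d and Cd3e both went from 7.5% to 20%, Gzma from 12.5% to 0%, and Cd2 and Nkg7 both from 7.5% to 0%. All 13 markers of the table summed to 0.925 genes per control cell and 1.5 per cell labelled depleted, with 3 and 5 of them at 0. Their part in the result was not tested.

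**Figure D3:**
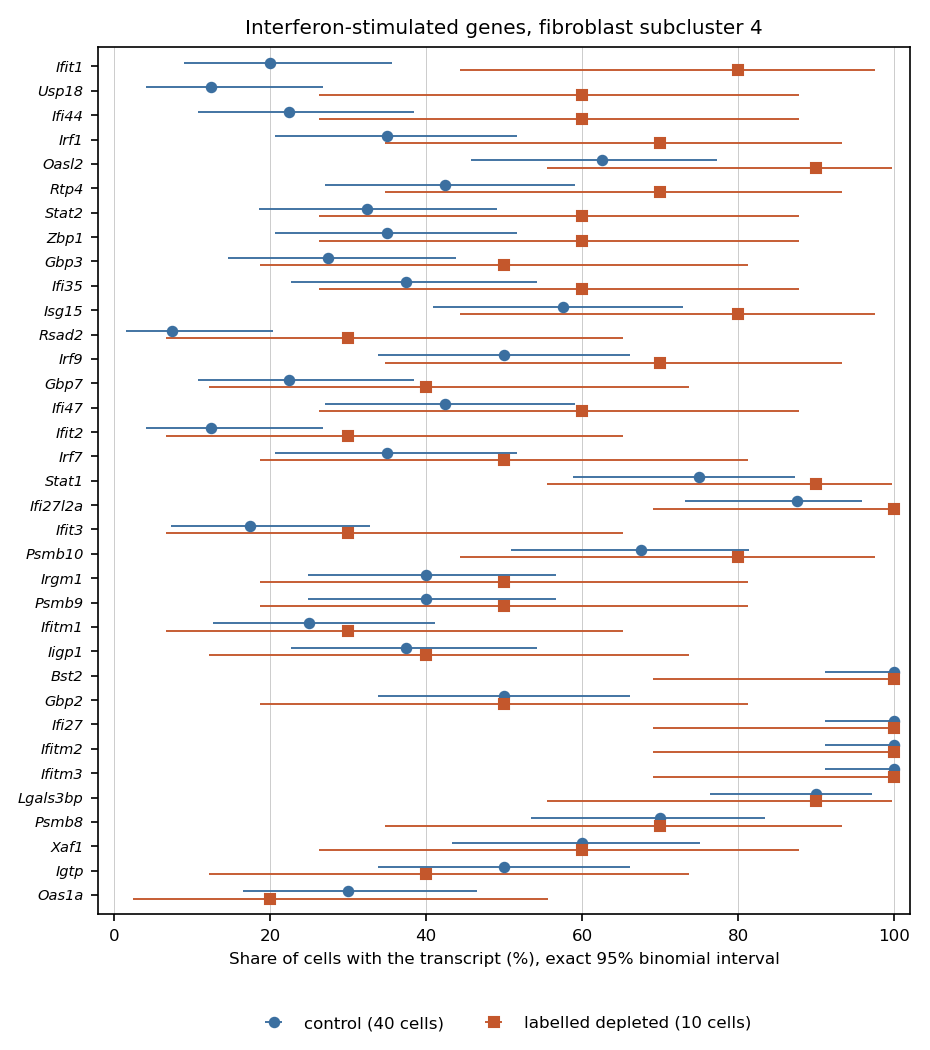
Share of cells (%, horizontal axis) with each of 35 interferon-stimulated transcripts in subcluster 4, with circles for the 40 control cells, squares for the 10 cells labelled depleted, and bars for exact 95% binomial intervals, which cover counting error only. Ifit1, at 20% and 80%, is at the top, and Oas1a, at 30% and 20%, at the bottom.

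Many interferon-stimulated genes carry the interferon-stimulated response element, whose core was searched here as GAAANNGAAA on either strand (TTTCNNTTTC when read on the other), overlapping matches included, in the 250 bases before each gene's start. RefSeq promoters on GRCm38.p6 were matched by symbol for 29 of the 36 genes. The core was present in 14 of the 29 (48.3%), against 2.98% of all 32851 promoters and 3.16% of the 7303 described genes with a promoter. Among the 10 matched genes higher by at least 20 points it was present in 5 (50%), and among the other 19 in 9 (47.4%). The 130 bases before the start are shown for Ifit1, Isg15 and Gbp3 (27.5% to 50%), which were higher, and for Bst2, which was in every cell, to show that the core is present in both kinds, with matches in capitals. They lie at chr19:34640759-34640888 (plus strand), chr4:156200819-156200948 (minus), chr3:142559914-142560043 (plus) and chr8:71537473-71537602 (minus).
Ifit1: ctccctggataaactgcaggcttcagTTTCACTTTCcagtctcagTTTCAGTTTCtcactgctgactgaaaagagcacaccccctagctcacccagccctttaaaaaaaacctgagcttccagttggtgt
Isg15: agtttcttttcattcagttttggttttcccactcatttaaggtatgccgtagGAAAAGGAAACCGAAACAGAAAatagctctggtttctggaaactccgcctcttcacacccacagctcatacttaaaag
Gbp3: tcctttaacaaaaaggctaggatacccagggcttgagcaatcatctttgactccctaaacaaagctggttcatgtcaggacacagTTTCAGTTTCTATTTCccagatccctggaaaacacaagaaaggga
Bst2: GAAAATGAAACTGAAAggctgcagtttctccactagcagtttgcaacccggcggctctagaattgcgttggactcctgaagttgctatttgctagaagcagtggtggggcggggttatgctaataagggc
Ifit1 has 2 matches, the farthest beginning 104 bases before the start, Isg15 has 3 overlapping ones from base 78, Gbp3 has 2 from base 45 and Bst2 has 2 from base 130. A match is a description of the letters and not evidence of binding.

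Of the 16 genes lower by at least 50 points, 3 are known from myeloid cells. The one with the largest difference was C1qb (chromosome 4, 136606009 to 136613511), a chain of the complement recognition protein made by macrophages, which was in 31 of 40 control cells (77.5%, interval 61.5% to 89.2%) and 1 of 10 cells labelled depleted (10%, 0.253% to 44.5%). Chil3, a chitinase-like protein of myeloid cells, went from 65% to 0%, and Tyrobp, a signalling adaptor of myeloid receptors, from 90% to 30%. C1qb went, in subclusters 0, 3 and 5, from 82.8% to 37.5%, 80% to 39.1% and 82.6% to 47.6%. Chil3 went from 75.2% to 9.38%, 80% to 4.35% and 43.5% to 4.76%, and Tyrobp from 82.8% to 43.8%, 83.3% to 26.1% and 65.2% to 52.4%. Chil3 was listed in 14 of the 17 cluster tables outside the fibroblasts, and it was lower in the library labelled depleted in 13 of the 14 and higher in 1. Its control shares there lay between 25.7% and 97.9%.

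Of 22 macrophage and monocyte markers 16 reached 25% of cells, of which 13 were lower and 3 higher, 9 of the 13 by at least 20 points, against 39.1% and 11% of all genes described. The 16 markers had a median of -22.5 points, or -12.5 with a limit of 10% of cells. Spp1 (osteopontin) went from 62.5% to 20%, Fcer1g from 70% to 30%, Pf4 from 45% to 10% and the MHC class II gene H2-Eb1 from 82.5% to 40%. The exceptions were C1qa (67.5% to 80%), Csf1r (57.5% to 70%) and Ccr2 (22.5% to 30%). All 22 markers summed to 11.45 genes per control cell and 7.6 per cell labelled depleted, with Fcgr1 the marker at 0 in the latter. In subclusters 0, 3 and 5 the sums were 11.7, 10.6 and 8.96 in control and 6.81, 7.70 and 6.38 in the library labelled depleted.

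Of 13 neutrophil markers 4 reached the 25% limit, and those 4 were lower, 3 of them by at least 20 points, against 39.1% and 11% of all genes described. S100a8 went from 82.5% to 40%, S100a9 from 85% to 60%, Retnlg from 40% to 0% and Lcn2 from 37.5% to 20%. The median was -32.5 points, or -10 with a limit of 10% of cells. The haemoglobin genes Hbb-bs (45% to 0%) and Hba-a1 (30% to 0%) were lower as well, and all 6 erythroid markers were at 0 in the cells labelled depleted. Haemoglobin genes are markers of red cells, and the study's methods include a red cell lysis step before sorting. Hbb-bs was also in 38.6%, 43.3% and 30.4% of control cells of subclusters 0, 3 and 5. The part of transcripts from other cells in the lower shares of immune and haemoglobin genes was not tested.

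**Figure D4:**
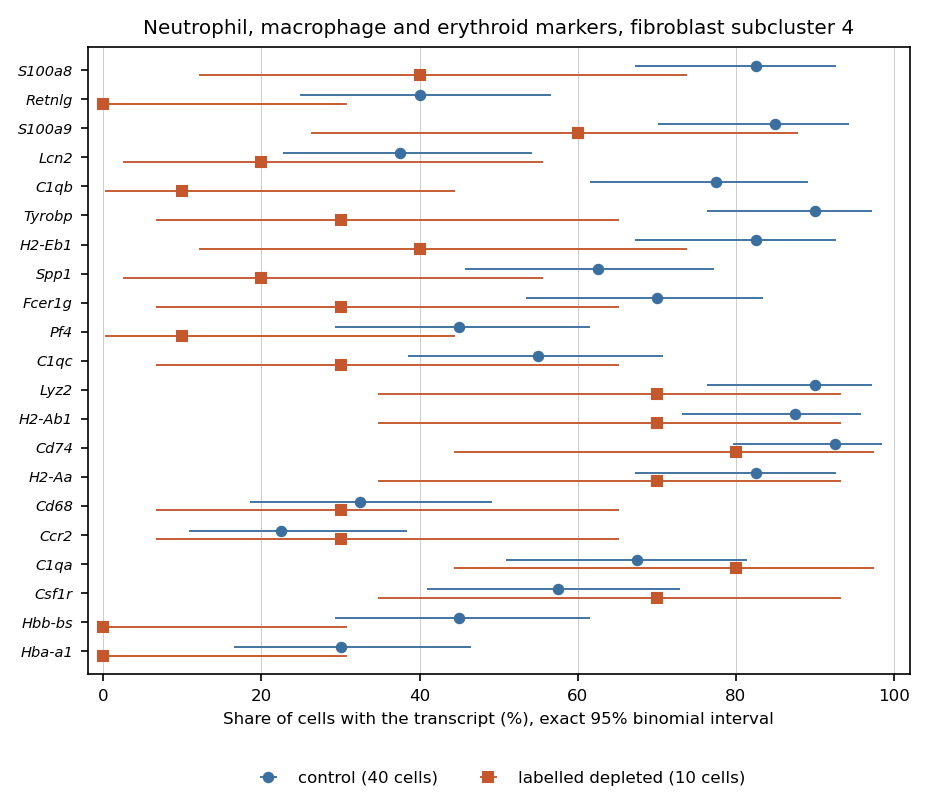
Share of cells (%, horizontal axis) with neutrophil (top), macrophage and monocyte (middle) and erythroid (bottom) marker transcripts in subcluster 4, with circles for the 40 control cells, squares for the 10 cells labelled depleted, and bars for exact 95% binomial intervals. Hbb-bs went from 45% to 0%, and C1qa, Csf1r and Ccr2 had higher shares in the cells labelled depleted.

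Genes that fibroblasts themselves express were also among the lowest. Cthrc1, a secreted protein of activated fibroblasts that carries a collagen repeat, was in 28 of 40 control cells (70%, interval 53.5% to 83.4%) and 1 of 10 cells labelled depleted (10%, 0.253% to 44.5%). In subclusters 0, 3 and 5 it went from 44.8% to 34.4%, 46.7% to 21.7% and 82.6% to 100%. Kcnj15, an inward rectifier potassium channel (chromosome 16, 95058417 to 95101119), went from 62.5% (45.8% to 77.3%) to 0%, with an upper limit of 30%. It was uncommon in the other subclusters, at 1.38%, 3.33% and 21.7% of control cells, so among control cells it was most common in subcluster 4.

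Slc30a2, a zinc transporter, went from 57.5% to 0%, and Mccc1, an enzyme of leucine breakdown, from 52.5% to 0%. Cdk7, the kinase that activates cell cycle kinases and is part of TFIIH, went from 82.5% (67.2% to 92.7%) to 20% (2.52% to 55.6%), against 66.2% to 68.8%, 83.3% to 82.6% and 47.8% to 61.9% in subclusters 0, 3 and 5. Hbs1l, which rescues stalled ribosomes, went from 65% to 10%, Lsm1 of the mRNA decay complex and Slc35f5 both from 82.5% to 30%, and Cul7, a ubiquitin ligase scaffold, from 72.5% to 20%. The remaining genes lower by at least 50 points were the pseudogene Gm12191 (72.5% to 20%), the long non-coding RNA Gm34030 (60% to 10%), Chid1 (70% to 20%) and Ocel1 (70% to 20%). Ocel1 went from 77.2% to 21.9%, 73.3% to 26.1% and 52.2% to 9.52% in the other 3. Gm12191 went from 80% to 53.1%, 80% to 56.5% and 69.6% to 81.0% there. Outside the fibroblasts Ocel1 was lower in all 10 clusters that list it and Gm12191 in all 13. Hbs1l was listed for 1 such cluster and was higher.

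**Figure D5:**
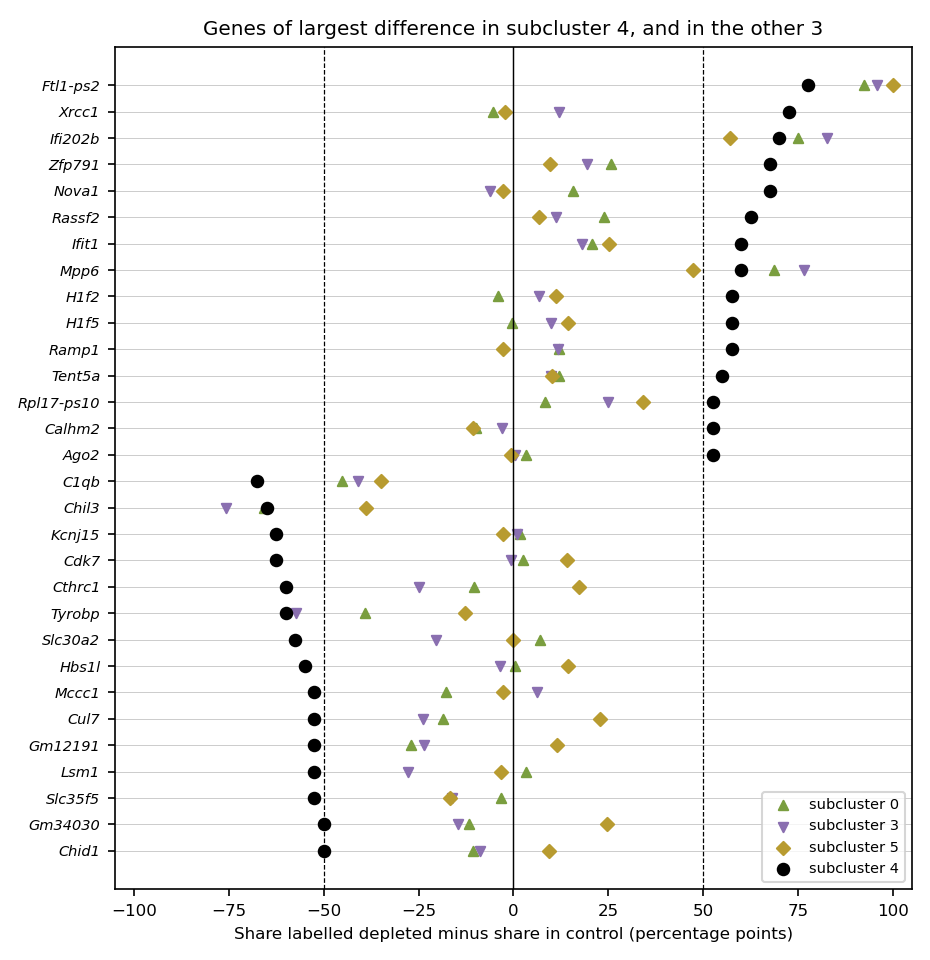
Difference in share of cells (labelled depleted minus control, percentage points, horizontal axis) for the 15 highest and 15 lowest genes of subcluster 4 (black circles) and the same genes in subclusters 0, 3 and 5. The genes were chosen by their size in subcluster 4, where the dashed lines mark 50 points, so its position at the outside is fixed by the choice, and all 4 subclusters come from the same 2 libraries.

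Genes around the targeted pathway went both ways. Of the 17 YAP, TAZ, TEAD and Hippo kinase genes, all at the 25% limit, 7 were higher, 6 lower and 4 equal. Of all genes described 50.3% were higher and 39.1% lower. The median of the 17 was 0 points, or 12.5 with a limit of 50% of cells. Vgll4, a competitor of Yap for TEAD factors, went from 57.5% to 90%, Tead2 from 30% to 50% and Amotl2 from 60% to 80%, whereas Stk4 went from 45% to 30%. Of 18 Yap and TAZ target genes 9 were higher and 6 lower, near the 50.3% and 39.1% of all genes described. Their median was 1.25 points, or 6.25 with a limit of 50% of cells. Tgfb2 went from 17.5% to 60% and Crim1 from 37.5% to 60%, while the LIM protein gene Ajuba went from 35% to 10% and Arhgef17 from 50% to 30%.

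In control cells the 5 CCN genes of the table were less common in subcluster 4 than in subcluster 5. In subcluster 4 Ccn3 went from 27.5% to 0%, Ccn1 from 42.5% to 40%, Ccn2 from 27.5% to 20% and Ccn4 from 45% to 50%, while Ccn5 was in 0 cells and Ccn6 was not among the genes of the table. In the library labelled depleted Ccn4 was in 38.1% of subcluster 5 cells, below the 50% here. For Ccn3, 0 of 10 cells allows a detected share of up to 30%, which includes the control share of 27.5%, so the lower share was not resolved with 10 cells. With centring on genes of like mean share the difference of Ccn3 was -12.5 points in place of -27.5 and that of Ccn2 -17.5 in place of -7.5. In subclusters 0, 3 and 5 Ccn3 had control shares of 83.4%, 80% and 60.9% and shares labelled depleted of 37.5%, 21.7% and 19.0%.

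Of 8 fibrillar collagen genes at the limit 3 were higher, 1 lower and 4 equal, against 50.3% higher and 39.1% lower of all genes described. Col5a3 went from 30% to 70%, Col24a1 from 15% to 40% and Col27a1 from 37.5% to 20%. The 13 other collagens had a median of 2.5 points, with Col6a6 going from 35% to 10% and Col18a1 from 67.5% to 90%. Basement membrane genes had a median of 0, elastic fibre genes 0, small leucine-rich proteoglycans 0 and collagen processing enzymes 0. Within these lists Hmcn1 (hemicentin) went from 7.5% to 50%, Fbn2 from 20% to 50%, Adamts14, a procollagen protease, from 17.5% to 50%, Plod3 from 87.5% to 50% and Loxl3 from 30% to 0%.

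Of 15 contractile and myofibroblast genes at the limit 3 were higher, 7 lower and 5 equal, the last in every cell of both libraries. By at least 20 points 3 were lower and 0 higher, against 11% and 15.6% of all genes described. The median was 0 points and the mean -9.17, against 2.5 and 1.85 over all genes described. Beside Cthrc1, desmin (Des) went from 67.5% to 40%, transgelin (Tagln) from 60% to 40%, and Mylk from 77.5% to 70%. Myl9 went from 25% to 10%, a difference of -15 points that was 0 with centring on genes of like mean share, and that of Tnc went from -17.5 to -2.5. Of 11 integrin subunits 6 were higher and 3 lower, a share near the 50.3% of all genes described that were higher. Their median of 10 points fell to 2.5 with the same centring and to 0 with a limit of 50% of cells. Itga1, a collagen receptor subunit, went from 2.5% (interval 0.0633% to 13.2%) to 50% (18.7% to 81.3%), and Itga5, of the fibronectin receptor, from 42.5% to 70%. The osteochondral list had only 5 genes at the limit, 4 of them higher and 0 lower against 50.3% and 39.1% of all genes, with a median of 15 points, or 5 with the same centring. Its members that differed most were Tnfrsf11b (osteoprotegerin, 25% to 50%) and Runx1 (40% to 60%), and its cartilage regulators stayed uncommon, with Sox9 in 5% and 20% and Runx2 in 10% and 0%.

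Among secreted signals and their receptors, TGF-beta genes went both ways: Tgfb1 from 60% to 20%, Tgfb2 from 17.5% to 60%, the receptor Tgfbr1 from 15% to 50% and its effector Smad3 from 30% to 70%. Of the 19 genes of that list at the limit 11 were higher and 7 lower, with a median of 2.5. Of all genes described 50.3% were higher and 39.1% lower, also with a median of 2.5. The Wnt list had 10 of 16 higher and 6 lower, with a median of 5, beside the same all-gene values. Of the angiogenic genes, Vegfa went from 27.5% to 50% and Pdgfa from 52.5% to 80%, whereas Vegfc and Fgf2 (62.5% to 40%) were lower. Of 16 complement genes at the limit 11 were higher and 4 lower, 4 and 2 of them by at least 20 points, with a median of 2.5. Of all genes described 15.6% were higher and 11% lower by at least 20 points. C3 and C1s1 were each in 97.5% and 100% of cells, the complement shield Cd55 went from 25% to 70% and Cfb from 37.5% to 60%. Serpina3n, an acute phase protease inhibitor, went from 52.5% to 10%, and ceruloplasmin (Cp) from 40% to 80%.

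Of all 51 gene lists, 44 had at least 4 genes at the limit. The median was at least 10 points in 3 (interferon-stimulated genes, osteochondral genes and integrins) and at most -10 points in 3 (neutrophil markers, macrophage markers and S100 proteins). Of 9 S100 genes 6 were lower and 0 higher, against 39.1% and 50.3% of all genes described. S100a8 and S100a9 of the neutrophil list were among the 6. In the other 38 lists the median lay between -8.75 and 5 points. Ribosomal proteins (80 of 92 equal), nuclear respiratory chain genes (39 of 55 equal) and the proteasome (10 of 26 equal) had a median of 0. Of the 92 ribosomal protein genes 80, of the 55 respiratory chain genes 38 and of the 26 proteasome genes 7 were in every cell of both libraries, where the share says nothing about the level.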

How the data were processed

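Interstitial ventricular cells were captured with 10x Chromium V3.1 chemistry in 2 libraries, 1 per genotype. Per the submitters' processing notes and the study's methods, the authors aligned reads with Cell Ranger 6.1.1 to GRCm39 with reporter sequences, normalized counts with SCTransform in Seurat, regressed out the mitochondrial share, clustered all cells, and re-clustered the fibroblasts alone. No doublet caller is named, and doublets were not removed here. The fraction of cells with a corrected count above 0, which the authors deposited with 3 decimals for each gene and library, was the measurement used, and it is printed as a percent. The authors' own fold changes, p-values and adjusted p-values of the same tables were not used.

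From the fractions were computed the number of cells per library (the smallest number for which every fraction is a whole number of cells), the share, its exact 95% binomial interval, and the difference of shares in percentage points. Genes needed 25% of cells in either library, and 50 points marked a large difference. The cell number search, intervals and differences were tested on simulated data. No test of genotype was made, since each group held 1 library and cells are not replicates. Depth per cell is not in the tables, so precision was set by the 40 and 10 cells.

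Named genes were the 15 with the largest difference in each direction (ties by the log2 ratio of shares with 0.5 cells added), list members with a difference of at least 50 points, Yap1, Wwtr1, Postn, the CCN genes and the markers, and others appear as examples of their list. A macrophage marker that is counted in its list is not reported by name or drawn here. The members, lists and sizes were chosen with earlier results of these data known, and the size of 20 points after the values were seen. Of 72 genes in the table of named genes, 70 matched the GENCODE annotation of GRCm39 by symbol. Python 3.11.15 with pandas, numpy and scipy was used. Alternatives were other sizes, other limits on the share, centring on genes of like mean share in 20 bins, the log2 ratio, the mean, and leaving out pseudogenes, predicted genes and ribosomal proteins.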

Additional observations from a re-analysis of the deposited data

Results flagged for a closer look

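The direction of 3 genes with a large difference in subcluster 4 was opposite, by at least 20 points, in another fibroblast subcluster. Jup, which encodes the junction protein plakoglobin, went from 50% of control cells to 100% of cells labelled depleted in subcluster 4, whereas its shares in subcluster 3 were 66.7% and 39.1%, a difference of -27.5 points. Cul7 went from 72.5% to 20% here, whereas its shares in subcluster 5 were 39.1% and 61.9%, a difference of 22.8 points. Gm34030 went from 60% to 10%, whereas its shares in subcluster 5 were 8.70% and 33.3%, a difference of 24.6 points. Each value rests on 1 library per group and on 10 to 40 cells, and the difference between subclusters was not tested.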

How the results depend on the processing

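The counts of genes with a large difference depend on the size chosen. At 40 points 120 genes were higher and 74 lower, at 60 points 8 and 6, at 20 points 1420 and 1008, and with a log2 ratio of shares of at least 2 in size 94 and 119, against 23 and 16 at 50 points. Limits of 10% or 50% of cells left 23 and 16. That was fixed in advance, since a difference of 50 points needs a share of at least 50%. Leaving out pseudogenes, predicted genes and ribosomal proteins gave 20 and 14. Centring on genes of like mean share gave 31 and 16, with 34 of the 39 genes still past 50 points. Centring moved a gene by at most 15 points. The median over all genes was 2.5 points under 3 alternatives, and 1.85 as a mean. Of the 6 lists with a median of 10 points or more in size none changed sign, but 4 moved by more than 1.5 times: integrins from 10 to 2.5 with centring and 0 at a limit of 50%, osteochondral genes from 15 to 5 with centring and 8.75 at a limit of 10%, and at that limit neutrophil markers from -32.5 to -10 and macrophage markers from -22.5 to -12.5. Interferon-stimulated genes lay between 12.5 and 15 points and S100 proteins between -12.8 and -10. Of the smaller medians, that of YAP, TAZ, TEAD and Hippo kinase genes went from 0 to 12.5 at a limit of 50% and -2.5 with centring. That of target genes went from 1.25 to 6.25 at 50% and of CCN genes from -5 to 5 at 50%. Chemokines went from -2.5 to -15 at 50% and 2 as a mean. Acute phase genes went from -8.75 to -15 at 10%, -2.5 at 50% and -2.75 as a mean. Cell cycle genes went from -2.5 to 1.25 at 10% and 8.75 at 50%. None of the named genes past 50 points changed sign under centring, and none could, since centring moved a gene by at most 15 points. No paired analysis was possible because there was a single library in each group, and no replicate could be left out. With 10 cells, a share in the library labelled depleted moves in steps of 10 points, and shares at 100% in both libraries cannot show a difference.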

Other observations

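Genes of the same macrophage protein did not differ alike in subcluster 4. The 3 chains of C1q went from 67.5% to 80% (C1qa), from 77.5% to 10% (C1qb) and from 55% to 30% (C1qc). In subcluster 0 they went from 69.7% to 50%, from 82.8% to 37.5% and from 55.9% to 34.4%. The keratins of the epicardium were not detected alike either. In subcluster 4 Krt19 was in 37.5% of control cells and 30% of cells labelled depleted and Krt8 in 87.5% and 70%, whereas in control cells of subcluster 0 Krt19 was in 94.5% and Krt8 in 44.1%. Thy1, a surface protein used to sort fibroblasts, went from 20% to 60%, and the alarmin Il33 from 25% to 60%, the latter against 84.8% and 84.4% in subcluster 0. No explanation of these values was tested.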
